A study of Mus musculus with 16 samples.

Results

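The genes that handle vitamin A were examined in mature brown adipocytes after activation of the long noncoding RNA gene *Gm15551* and after β-adrenergic stimulation. The set was chosen by name, with earlier results of these data known. It consisted of 9 genes of retinoid metabolism, *Aldh1a1*, *Aldh1a2*, *Aldh1a3*, *Rdh10*, *Dhrs3*, *Rbp4*, *Crabp2*, *Stra6* and *Cyp26b1*, out of 54347 genes in the count table. All 9 were present in the table, and 3 of them, *Dhrs3*, *Aldh1a1* and *Rdh10*, had enough counts to be tested. The cells were wt1-SAM cells, a single immortalised mouse brown preadipocyte line that permanently carries the SAM version of CRISPRa, in which a dead Cas9 and activator proteins raise transcription where a guide RNA directs them. All cultures went through the same differentiation with rosiglitazone (0.5 µM), dexamethasone (1 µM), T3, insulin, indomethacin and IBMX, received 250 ng of plasmid by reverse transfection on day 4 and were harvested on day 7. The 4 groups of 4 libraries were empty vector control, empty vector with isoproterenol (1 µM for 24 h), sgRNA control and sgRNA with isoproterenol, where sgRNA stands for the plasmids with guides against *Gm15551* and isoproterenol is a β-adrenergic agonist. Each group held the replicate numbers 3, 4, 5 and 6. No source used here says that the replicates came from separate cultures, so p-values measure the spread between these libraries, which may be technical.

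Retinol travels in blood bound to RBP4 and can enter cells through the receptor STRA6. Inside the cell, RDH10 oxidises retinol to retinal and DHRS3 reduces retinal back to retinol, so that the pair sets how much retinal is at hand. The ALDH1A enzymes then oxidise retinal irreversibly to retinoic acid, CRABP2 carries the acid to its nuclear receptors, and CYP26B1 breaks it down. In adipose tissue retinoic acid is known as an inducer of *Ucp1*, retinal and ALDH1A1 are known to affect fat storage and thermogenesis, and RBP4 is known as a protein that adipocytes secrete.

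Estimated counts summed to between 9053521 and 16546187 per library, of which a single ribosomal RNA gene took between 11.7% and 51.8%. Levels are given as CPM, the counts scaled to library size after TMM normalisation. The 9 adipocyte markers were all tested, with *Fabp4* the highest of them, while the brown marker *Dio2* had 1 count in all 16 libraries. *Gm15551* was measured at 0.952 ± 0.405 CPM in empty vector and 2.97 ± 1.08 CPM in sgRNA control libraries, and at 0.147 ± 0.199 and 1.56 ± 0.42 CPM after isoproterenol (SD, n = 4 each), where 2 empty vector libraries were at 0. Averaged over treatments, the difference between sgRNA and empty vector did not pass edgeR's quasi-likelihood test (log2 fold change 2.37, SE 0.391, adjusted p = 0.0989), and its adjusted p was 0.00055 when the replicate number was a block in the model. Libraries of the same replicate number deviated together from their group means. Values from the fit with that block are therefore given wherever they change a call of the 9 genes. For isoproterenol averaged over plasmids they are also given for further pathway genes and cell type markers.

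Levels of the 9 genes were compared per kilobase of exon, since a count depends on transcript length. *Dhrs3* was the highest, with 9.24 ± 2.75 CPM per kb (SD, n = 16 libraries), and its lowest library, at 5.11 CPM per kb, lay above every library of the other genes but 1 of *Aldh1a1*, which reached 5.26 CPM per kb. *Rdh10* followed with 1.32 ± 0.235 CPM per kb and *Aldh1a1* with 1.2 ± 1.67 CPM per kb, a pair whose levels overlapped and whose order turned over when the mean transcript length was used instead. The other 6 genes had mean levels of at most 0.144 CPM per kb, and these were too low to be ordered among themselves. Within the set of 9, both enzymes of the step between retinol and retinal and 1 of the 3 retinal dehydrogenases were therefore measured at testable levels.

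The first comparison asked how β-adrenergic stimulation changed these genes. Of the 3 tested genes, 1 was called lower with isoproterenol averaged over both plasmids, *Dhrs3*, and 0 were called higher. A call needed an adjusted p under 0.05 and a log2 fold change beyond 0.5 in either direction. By the same rule 2.65% of all 13150 tested genes were called in either direction, and 1.32% of the 13150 were called lower. With the replicate block 2 of the 3 were called lower, *Dhrs3* and *Aldh1a1*, against 5.7% of all genes called and 2.61% called lower. *Rdh10* pointed the other way in every pair of libraries and was not called by either fit. The median log2 fold change over all tested genes was 0.005 without the block. In that fit the 3 genes were at -1.14 (*Aldh1a1*), -0.60 (*Dhrs3*) and 0.29 (*Rdh10*), too few for a median to describe them as a set.

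*Dhrs3* (ENSMUSG00000066026, chr4:144892827-144928209 on the plus strand of GRCm38), the enzyme that returns retinal to retinol, held between 146 and 539 counts per library. Its levels in replicates 3, 4, 5 and 6 were 32.4, 24.1, 42.6 and 29.0 CPM in empty vector control and 18.8, 14.9, 29.1 and 21.5 CPM after isoproterenol. In sgRNA cells they were 36.2, 24.0, 39.6 and 32.4 CPM in control and 23.6, 16.2, 26.4 and 21.7 CPM after isoproterenol. Replicate 4 was the lowest and replicate 5 the highest library in each of the 4 groups, and the stimulated range overlapped with the control range in both plasmid arms. Within each of the 8 pairs of the same plasmid and replicate number the stimulated library was lower, by 1.35-fold to 1.72-fold.

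Averaged over plasmids, *Dhrs3* was 1.51-fold lower with isoproterenol (log2 fold change -0.60, SE 0.156, 95% interval -0.93 to -0.27, adjusted p = 0.0386, edgeR's quasi-likelihood test). With the block the SE shrank to 0.057 and the adjusted p was 2.2e-06. In each plasmid arm alone the fold change was similar in size, -0.61 in empty vector and -0.59 in sgRNA cells, but with edgeR and no block the adjusted p was 0.312 and 0.383. These became 0.000177 and 0.000192 with the block. Without the block the call in the average held in only 6 of the 20 fits that left out a library or a replicate number. These left out the control libraries of replicate 4 in either arm, the isoproterenol libraries of replicate 5 in either arm, the empty vector control library of replicate 6, or replicate 5 altogether. In the other fits the adjusted p lay between 0.0523, without replicate 4, and 0.31, without replicate 3. With the block the call held in 4 of 4 fits that left out a replicate number. The adipocyte markers moved with this result, as 5 of 9 (*Adipoq*, *Cfd*, *Cidec*, *Lipe* and *Retn*) were called lower, against 1.32% of all genes. Their summed level, in which *Fabp4* weighed most, was 16400 to 27000 and 20100 to 25400 CPM in the control groups. It was 12500 to 22000 and 13400 to 23600 CPM in the stimulated ones. Among other markers 2 of the 8 tested brown adipocyte markers, *Ucp1* and *Ppargc1a*, were called higher, against 2.65% of all genes called in either direction. *Cd68*, the only tested one of 5 macrophage markers, was also called higher, while *Adgre1* had 1 count in all libraries. With the block 6 of 9 adipocyte markers, now with *Plin1*, were called lower and 3 of the 8 tested brown ones, now with *Cidea*, higher. All 3 tested smooth muscle markers (*Acta2*, *Myh11* and *Tagln*) were then called lower. Of the 5 tested preadipocyte or fibroblast markers 1, *Ly6a*, was called higher, while the median log2 fold change of those 5 was 0.039. The block called 5.7% of all genes in either direction and 2.61% lower. The part of these shifts in the *Dhrs3* result was not tested, and in bulk RNA fewer cells of a type and less RNA per cell cannot be told apart.

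**Figure D1:**
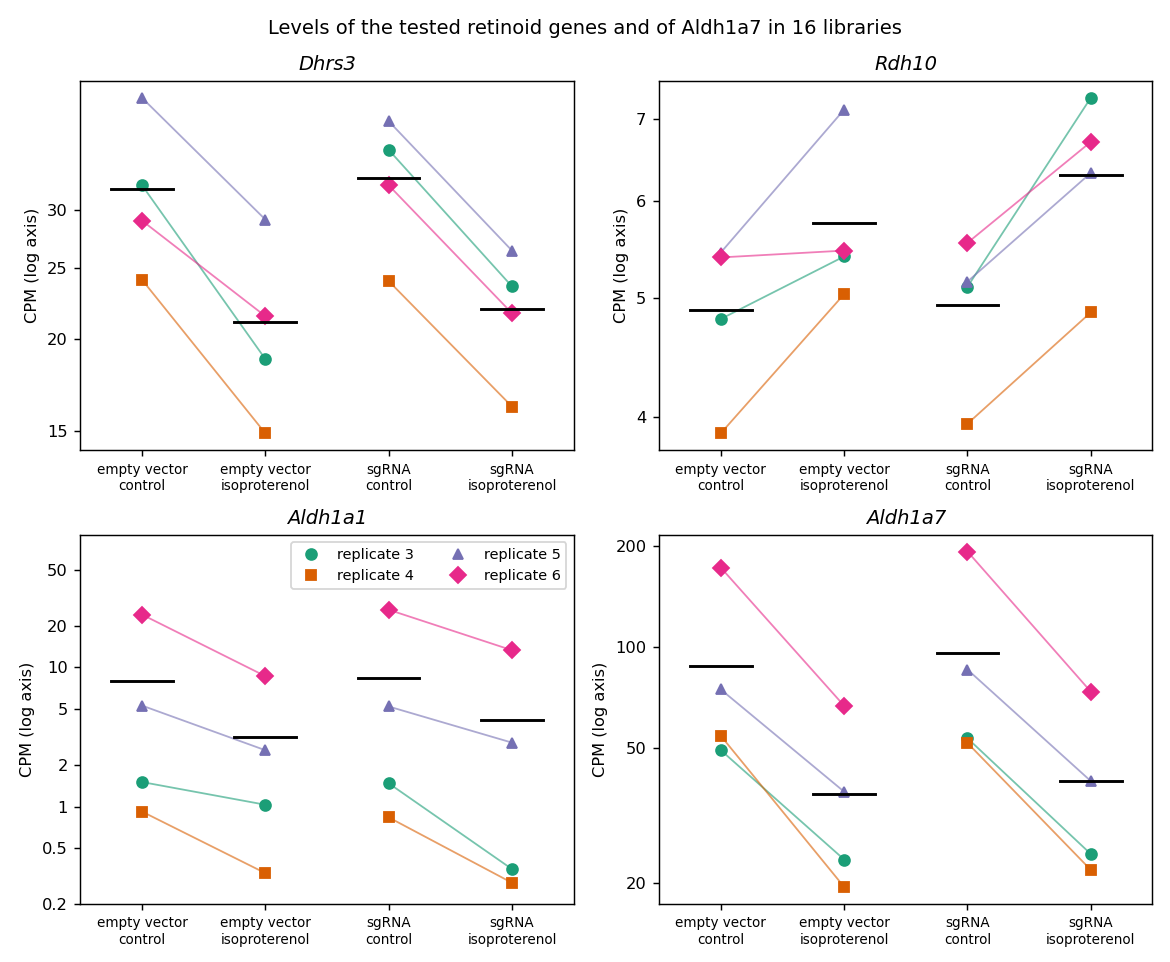
Level of *Dhrs3*, *Rdh10*, *Aldh1a1* and its neighbour *Aldh1a7* in CPM on log axes in the 4 groups, where points are libraries, lines join the control and isoproterenol library of the same plasmid and replicate number, and black bars are group means (n = 4). The lines of *Dhrs3*, *Aldh1a1* and *Aldh1a7* all fall and those of *Rdh10* all rise, while replicate 6 stands above the others in *Aldh1a1* and *Aldh1a7*.

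*Rdh10* (ENSMUSG00000025921, chr1:16105774-16133734, plus strand) catalyses the step opposite to that of *Dhrs3* and held 42 to 95 counts per library. It was measured at 4.81, 3.88, 5.45 and 5.40 CPM in empty vector control and at 5.41, 5.04, 7.13 and 5.47 CPM after isoproterenol. In sgRNA cells the levels were 5.11, 3.95, 5.16 and 5.55 CPM in control and 7.29, 4.87, 6.33 and 6.71 CPM after isoproterenol. The stimulated library was the higher one in 8 of 8 pairs, by 0.018 to 0.51 on the log2 scale, although the groups overlapped. The averaged log2 fold change was 0.29 (SE 0.127, 95% interval 0.023 to 0.56, adjusted p = 0.239, edgeR's quasi-likelihood test). The block gave 0.30 and an adjusted p of 0.033, which passed the threshold on p but not the bound of 0.5 on the fold change. It did not pass on p in any of the 4 blocked fits that left out a replicate number (edgeR adjusted p = 0.0676 to 0.138).

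*Aldh1a1* (ENSMUSG00000053279, chr19:20492715-20643465, plus strand), the only ALDH1A gene of the set with testable counts, differed more between replicate numbers than between groups. The levels were 1.5, 0.92, 5.32 and 24.0 CPM in empty vector control and 1.03, 0.332, 2.54 and 8.66 CPM after isoproterenol. In sgRNA cells they were 1.47, 0.836, 5.24 and 26.0 CPM in control and 0.355, 0.283, 2.88 and 13.3 CPM after isoproterenol. In every group replicate 4 was the lowest and replicate 6 the highest library. The replicate means were 1.09, 0.593, 4.00 and 18.0 CPM, and 864 of the 1125 counts of the gene lay in the 4 libraries of replicate 6. Replicate number held 89.7% of the variance of its log2 CPM and isoproterenol 8.5%, whereas for *Dhrs3* the shares were 45.5% and 50.2%.

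The fall of *Aldh1a1* with isoproterenol was therefore visible only within pairs. It was lower in the stimulated library of 8 of 8 pairs, by 1.46-fold to 4.13-fold. Without the block the averaged log2 fold change of -1.14 had an SE of 0.91, a 95% interval of -3.07 to 0.79 and an adjusted p of 0.577 by edgeR's quasi-likelihood test. With the block it was -1.17 (SE 0.146, 95% interval -1.48 to -0.86, adjusted p = 3.45e-05, 2.24-fold lower). The blocked fit called the gene in both arms, with -1.27 in empty vector (adjusted p = 0.00125) and -1.06 in sgRNA cells (adjusted p = 0.00273). When a replicate number was left out of the blocked fit, the call in the average held in 4 of 4 fits. In each arm it held in 3 of 4 and was lost without replicate 6, with an edgeR adjusted p of 0.0923 in empty vector and 0.0536 in sgRNA cells. The fit without the block moved with single libraries of replicate 6, from -2.08 without the sgRNA isoproterenol library to -0.28 without the sgRNA control library, -0.30 without the empty vector control library and -1.85 without the empty vector isoproterenol library. Only 4 to 25 counts of *Aldh1a1* lay behind each library of replicates 3 and 4, so its level there is known with a large counting error. Marker sums also differed between replicate numbers. Those of smooth muscle were separate in replicate 6, and those of preadipocytes and adipocytes overlapped with the others. The 4 libraries of replicate 6 held 70.2 to 127 CPM of the 9 preadipocyte or fibroblast markers against 18 to 70.7 CPM in the others, with *Dpp4* at 1 count in all libraries, and 19.2 to 34.1 against 3.28 to 13 CPM of the 4 smooth muscle markers. It held 12500 to 20100 CPM of the 9 adipocyte markers against 16300 to 27000 CPM in the others. For the brown adipocyte markers it was replicate 5, the highest of each group in *Dhrs3*, that stood apart, with 424 to 597 CPM against 202 to 373 CPM. These are plain sums of CPM, in which abundant genes weigh most, so a sum need not describe every marker of its list. The most abundant were *Elovl3* (brown adipocyte), *Ly6a* (preadipocyte or fibroblast), *Acta2* (smooth muscle) and *Fabp4* (adipocyte). *Elovl3* reached 443 CPM, for example, and *Ucp1* at most 15.5 CPM. The part of these markers in the levels of *Aldh1a1* and *Dhrs3* was not tested.

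**Figure D2:**
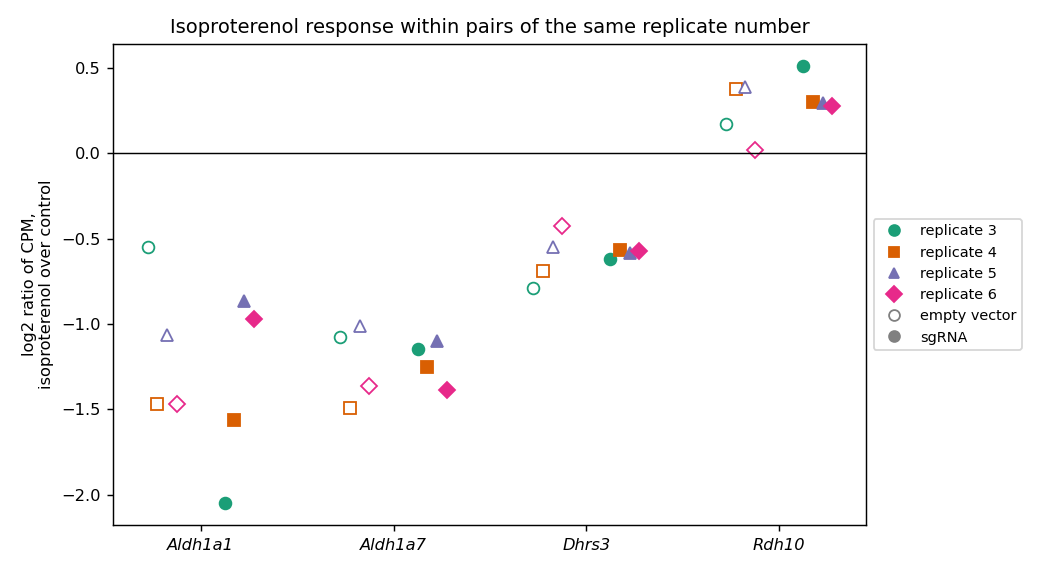
Log2 ratio of CPM, isoproterenol over control, within each pair of libraries of the same plasmid and replicate number, with open symbols for empty vector and filled symbols for sgRNA cells. All 8 ratios lie below 0 for *Aldh1a1* (-2.05 to -0.55), *Aldh1a7* (-1.49 to -1.01) and *Dhrs3* (-0.79 to -0.43), and all 8 lie above 0 for *Rdh10* (0.018 to 0.51).

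Reads of *Aldh1a1* can be shared with *Aldh1a7*, a rodent paralog that lies next to it on chromosome 19 on the other strand (chr19:20692953-20727562). The coding sequences of both genes are 1503 bases long and identical at 1377 positions, or 91.6%. The longest identical run is shown because a read inside it can be assigned to either gene only through its mate. It spans coding positions 757 to 856 and crosses 2 exons of *Aldh1a1* (chr19:20629063-20630671, GENCODE transcript, GRCm38).
shared run: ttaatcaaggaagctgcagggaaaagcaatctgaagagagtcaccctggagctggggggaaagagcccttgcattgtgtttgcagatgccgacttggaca

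The window of 60 coding bases with the most differences is shown as the contrast to it, since reads there do separate the genes. It covers coding positions 317 to 376, at chr19:20619973-20620032 (plus strand) in *Aldh1a1* and chr19:20719252-20719311 (minus strand) in *Aldh1a7*, and capitals mark the 16 bases that differ.
Aldh1a1 window: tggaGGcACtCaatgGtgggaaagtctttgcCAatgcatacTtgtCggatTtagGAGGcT
Aldh1a7 window: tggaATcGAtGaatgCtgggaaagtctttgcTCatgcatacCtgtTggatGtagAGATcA

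Of all runs of 31 bases in the *Aldh1a1* transcript 12% occur also in *Aldh1a7*, and 6.54% of its runs of 50 bases do, whereas none of the runs of *Rdh10* or *Dhrs3* occur in another gene. *Aldh1a7* was the far more abundant of the pair. It was measured at 49.4, 54.5, 74.8 and 172 CPM in empty vector control and at 23.4, 19.4, 37.2 and 66.9 CPM after isoproterenol. In sgRNA cells it was 53.6, 51.9, 85.7 and 192 CPM in control and 24.3, 21.8, 40.0 and 73.7 CPM after isoproterenol. Replicate 6 was again the highest library of each group, and the stimulated library was lower in 8 of 8 pairs. The averaged log2 fold change of *Aldh1a7* was -1.26 (SE 0.381, adjusted p = 0.0764, edgeR's quasi-likelihood test), and -1.24 with the block (SE 0.057, adjusted p = 6.79e-10). Without the block *Aldh1a7* was called by DESeq2 (adjusted p = 0.0383), by edgeR with no filter on low counts (adjusted p = 0.00285) and by edgeR with the share of ribosomal RNA as a covariate (adjusted p = 0.0318).

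*Aldh1a1* took between 1.28% and 15.3% of the counts of the pair. Its share followed the replicate number, with 1.44% to 4.21% in replicate 3, 1.28% to 1.69% in replicate 4, 5.76% to 6.73% in replicate 5 and 11.5% to 15.3% in replicate 6. Within replicates 3, 4 and 5 the exact 95% binomial intervals of the 4 libraries overlapped. In replicate 6 the sgRNA isoproterenol library (15.3%, interval 13.3 to 17.4) lay above the sgRNA control library (11.9%, interval 10.7 to 13.1). These intervals cover counting error only. When the counts of both genes were summed as 1 gene, an alternative chosen after seeing the data, the averaged log2 fold change was -1.25 without the block (adjusted p = 0.109, edgeR's quasi-likelihood test) and -1.23 with it (adjusted p = 7.02e-10). The sum does not depend on how reads were divided between the genes, whereas the level of *Aldh1a1* itself does and is uncertain.

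**Figure D3:**
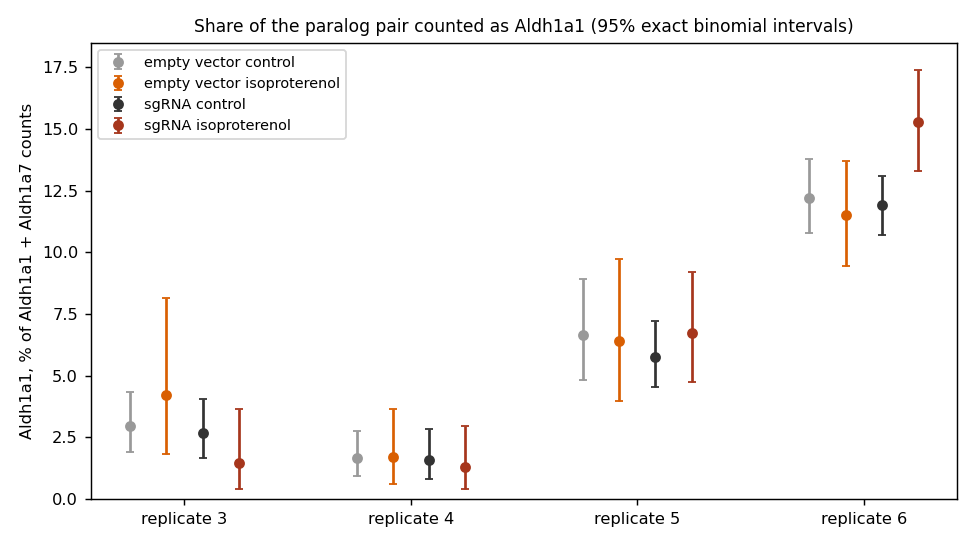
Share of the summed *Aldh1a1* and *Aldh1a7* counts assigned to *Aldh1a1*, in percent, for each of the 16 libraries by replicate number, with exact 95% binomial intervals as bars. The shares are at most 4.21% in replicates 3 and 4, 5.76% to 6.73% in replicate 5 and at least 11.5% in replicate 6.

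As both genes moved together, their promoters were compared in the RefSeq sequences of GRCm38.p6. The 100 bases before the start site, which for *Aldh1a1* is 1 of 2 start sites in that table, are shown because 94 of them are the same in both genes, and capitals mark the longest identical run of 65 bases. They lie at chr19:20601868-20601967 (plus strand) and chr19:20727557-20727656 (minus strand).
Aldh1a1 promoter: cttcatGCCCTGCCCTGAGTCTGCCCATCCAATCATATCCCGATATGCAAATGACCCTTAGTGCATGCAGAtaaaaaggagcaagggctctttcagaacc
Aldh1a7 promoter: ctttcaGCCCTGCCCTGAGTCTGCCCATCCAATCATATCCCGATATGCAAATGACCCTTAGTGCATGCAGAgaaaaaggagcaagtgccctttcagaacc

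Windows of 300 bases around the start site were searched on both strands for letters of retinoic acid receptor elements and of the cAMP response element. The retinoic acid receptor letters were AGGTCA, found in 16.3% of all 32851 promoter windows, GGTTCA in 10.4% and GTTCA, which is contained in GGTTCA, in 35.2%. GGGTCA, found in 13.7%, was added after the other letters had been searched. Direct repeats of AGGTCA with 5 or with 2 bases between them each occurred in 0.00913% of windows, and those with 1 base in 0.0396%. TGACGTCA, the cAMP response element, occurred in 1.79% of windows and TGACG, which it contains, in 20.8%. Of the 9 genes 6 had at least 1 window, and some had several for different start sites. The windows of *Dhrs3*, *Aldh1a2* and *Cyp26b1* held none of these letters. GGGTCA was found in the window of *Aldh1a7* and in 1 of the 2 windows of *Aldh1a1*, in both at 49 to 44 bases before the start site on the strand opposite to the gene, where the printed sequences read TGACCC. None of the other letters searched was found in these windows. GGGTCA was also found in 1 of the 2 windows of *Rbp4*. GTTCA was found in 1 of the 4 windows of *Stra6*, and GTTCA and TGACG in the other window of *Rbp4*.

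The other 6 genes were close to the limit of detection. The limit that a count of 0 allows, 3 counts, corresponded to between 0.166 and 0.39 CPM per library and covers counting error only. *Stra6*, the retinol receptor, had 11 counts in 6 of the 16 libraries with at most 2 in any. *Rbp4* had 28 counts in 7 libraries, of which 10 and 13 lay in the sgRNA control and sgRNA isoproterenol libraries of replicate 5 and at most 1 in any other, so that 25 of the 28 belonged to replicate 5. Of the retinal dehydrogenases, *Aldh1a2* had 1 count in 1 library and *Aldh1a3* 20 counts in 11 libraries with at most 5 in any. *Crabp2* had 39 counts in 15 libraries with at most 7. *Cyp26b1* was the only one of these 6 found in every library, with 106 counts in all, 1 to 22 per library, and it was spread over replicates 3 to 6 with 18, 10, 28 and 50 counts. No expression change of these genes was detected at this depth. An edgeR fit with no filter on low counts gave an unadjusted p under 0.05 to only 1 of them in any comparison. This was *Rbp4* for sgRNA averaged over treatments, with a log2 fold change of 2.52 and an adjusted p of 1 by edgeR's quasi-likelihood test, and its counts lay mostly in those libraries of replicate 5.

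**Figure D4:**
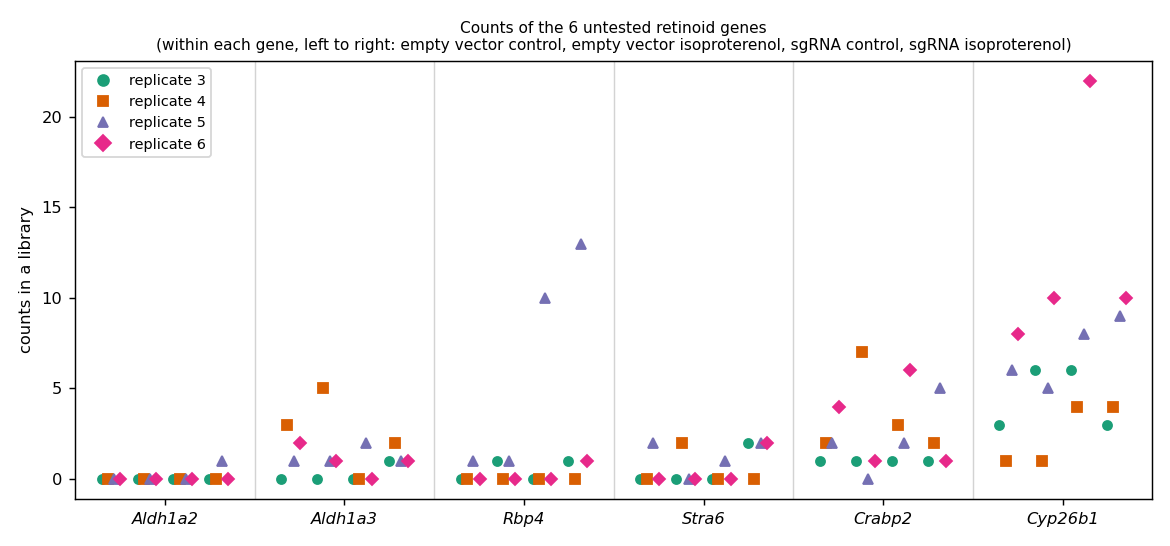
Counts of the 6 genes with too few reads for a test, as 1 point per library, with the 4 groups side by side within each gene and the replicate number given by colour and shape. The highest points are 22 counts of *Cyp26b1* in the sgRNA control library of replicate 6 and 13 and 10 counts of *Rbp4* in sgRNA libraries of replicate 5, while *Aldh1a2* has 1 count in all.

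The second comparison asked whether the plasmids with guides against *Gm15551* changed the retinoid genes. None of the 3 tested genes was called for sgRNA averaged over treatments, with 0 unadjusted p under 0.05 in edgeR's quasi-likelihood test, and DESeq2 called none as well. Among all tested genes edgeR called 0% in the fit with no block (437 had an unadjusted p under 0.05), and DESeq2 called 10 genes. The blocked edgeR fit called 0.266% (1506 had an unadjusted p under 0.05). Among the cell type markers the blocked fit called *Cidea* higher and *Ly6a* lower, and edgeR without the block called none. *Dhrs3* had a log2 fold change of 0.059 (95% interval -0.27 to 0.39), and the block narrowed the interval to -0.06 to 0.18. For *Rdh10* it was 0.078 (95% interval -0.19 to 0.35). For *Aldh1a1* it was 0.26 without the block, with an interval of -1.66 to 2.18 that bounds little, and 0.12 with it (-0.19 to 0.43). A change of *Dhrs3* by sgRNA as large as that by isoproterenol lay outside both of its intervals. The contrasts in control cells and in isoproterenol cells alone called 0 of the 3 as well, again with 0 unadjusted p under 0.05, against 0% of all genes in either without the block and 0.0304% and 0.122% with it.

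The third comparison asked whether the plasmids changed the response to isoproterenol. The interaction, the response in sgRNA cells minus that in empty vector cells on the log2 scale, was 0.016 for *Dhrs3* (95% interval -0.64 to 0.67, with the block -0.22 to 0.26). It was 0.11 for *Rdh10* (-0.43 to 0.64). For *Aldh1a1* it was 0.21 with the block (-0.40 to 0.83) and without it the interval ran from -3.53 to 4.14. None of the 3 was called by edgeR or DESeq2 and none had an unadjusted p under 0.05, against 0% of all genes called without and with the block (52 and 199 genes at an unadjusted p under 0.05). The responses of the arms, given above with -0.61 and -0.59 for *Dhrs3*, stood beside shares of 0.829% of all genes called for isoproterenol in empty vector cells and 0.7% in sgRNA cells without the block, and 4.47% and 3.9% with it. Among the 3 genes edgeR's main fit without the block made no call in either arm. In that fit 1 of them had an unadjusted p under 0.05 in each arm, against 1332 and 1112 of all 13150 genes. With the block 2 calls were made in each arm. With the share of ribosomal RNA as a covariate and no block, *Dhrs3* was called in empty vector cells (-0.80, adjusted p = 0.0277 by edgeR).

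The rest of the retinoid pathway was described from a list of 48 further genes, of which 27 were tested. The list was chosen with earlier results of these data known, so its counts are a description and no independent support. Without the block 4 of the 27 were called lower with isoproterenol and 0 higher, against 1.32% of all genes called lower, and the median log2 fold change was -0.22 against 0.005 over all genes. With the block 7 were called lower and 0 higher, against 2.61% of all genes called lower. *Scarb1* was called in all 20 fits without the block that left out a library or a replicate number, *Lipe* in 18, *Fabp5* in 8 and *Adh1* in 5. The sgRNA plasmids gave 0 calls among the 27 in either fit. Averaged over treatments, 1 of the 27 had an unadjusted p under 0.05 in edgeR without the block and 6 with it. Among all 13150 genes these counts were 437 and 1506.

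Among the further genes of uptake, transport and storage, 5 of 12 were tested and 2 were called lower. *Scarb1*, a lipoprotein receptor that also takes up carotenoids, was 1.5-fold lower (log2 fold change -0.59, SE 0.082, adjusted p = 0.000571, edgeR's quasi-likelihood test). It was measured at 208, 237, 219 and 186 CPM in empty vector control and at 144, 142, 168 and 125 CPM after isoproterenol. In sgRNA cells it was 229, 210, 211 and 173 CPM in control and 146, 120, 145 and 125 CPM after isoproterenol. Control and stimulated libraries did not overlap in either arm. *Lipe*, hormone-sensitive lipase, which releases retinol from its esters and is also one of the adipocyte markers, was 1.61-fold lower (-0.69, adjusted p = 0.0139). *Ces1d*, a carboxylesterase, was at -0.87 with an adjusted p of 0.0625 in edgeR without the block and was called with it (-0.85, adjusted p = 0.000174). Without the block it was also called by DESeq2 (adjusted p = 0.017) and by edgeR with no filter on low counts (adjusted p = 0.00802). *Lrat*, whose enzyme esterifies retinol, *Rbp2*, *Rdh7* and *Sdr16c6* had no count in any library.

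Among the further genes of retinol oxidation, 10 of 17 were tested and 1 was called lower. This was *Adh1*, an alcohol dehydrogenase that accepts retinol, which was 1.87-fold lower (-0.90, SE 0.242, adjusted p = 0.0444, edgeR's quasi-likelihood test). Its group means were 28.2 ± 14.7 and 13.7 ± 5.64 CPM in empty vector control and isoproterenol libraries and 34.8 ± 11.9 and 20.6 ± 3.49 CPM in sgRNA libraries (SD, n = 4 each), and the stimulated library was the lower one of all 8 pairs. *Adh1* was also higher in the sgRNA library of 8 of 8 pairs of the same treatment and replicate number, by 0.093 to 1.69 on the log2 scale, but was not called for sgRNA (0.47 with the block, adjusted p = 0.186 by edgeR). The share of ribosomal RNA was lower in the sgRNA library of all 8 pairs. In replicate 5 it was 47.3% in empty vector and 20.2% in sgRNA control libraries, and 51.8% and 20% after isoproterenol. When this share was a covariate, the isoproterenol call of *Adh1* was lost (-0.74, adjusted p = 0.061 by edgeR). No such value is given for the sgRNA difference of *Adh1*. *Dhrs9*, a retinol dehydrogenase, passed the threshold on p but not the bound on fold change (-0.31, adjusted p = 0.0113). *Rdh11* and *Rdh13*, which are also on this list, had positive values of 0.26 and 0.29. These passed on p only with the block (edgeR adjusted p = 0.00794 and 0.00108), and they lay within the bound. The 10 tested genes pointed both ways, 4 above and 6 below 0, with a median of -0.06. The direction in which each enzyme of this list works in these cells was not measured.

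Beside *Dhrs3*, the retinal reductase *Dhrs4* was at -0.51 and was called with the block (adjusted p = 0.0018 by edgeR) but not without it (adjusted p = 0.268). The blocked call was lost in 2 of the 4 fits that left out a replicate number, without replicate 3 (-0.38) and without replicate 6 (-0.50), where the fold change fell inside the bound. Of the carriers of retinoic acid only *Fabp5* was tested, which delivers it to PPAR receptors. It fell 1.46-fold (log2 fold change -0.55, adjusted p = 0.036), from group means of 1610 and 1540 CPM in control to 1070 and 1090 CPM after isoproterenol in empty vector and sgRNA cells. With that same covariate its fold change of -0.48 lay inside the bound. Of the 6 receptor genes 4 were tested and none was called, with *Rara* at 0.19, *Rarg* at 0.067, *Rxra* at -0.18 and *Rxrb* at -0.18. In edgeR 0 of the 4 had an unadjusted p under 0.05 without the block and 3 with it. Among all 13150 genes these counts were 2330 and 4399. *Rarg* turned to -0.023 once the share of ribosomal RNA was a covariate. None of the 3 *Cyp26* genes, which clear retinoic acid, was tested, *Cyp26b1* among them. Of 5 genes known to respond to retinoic acid 4 were tested and none was called, with *Nrip1* the only one that passed on p (-0.37, adjusted p = 0.041).

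**Figure D5:**
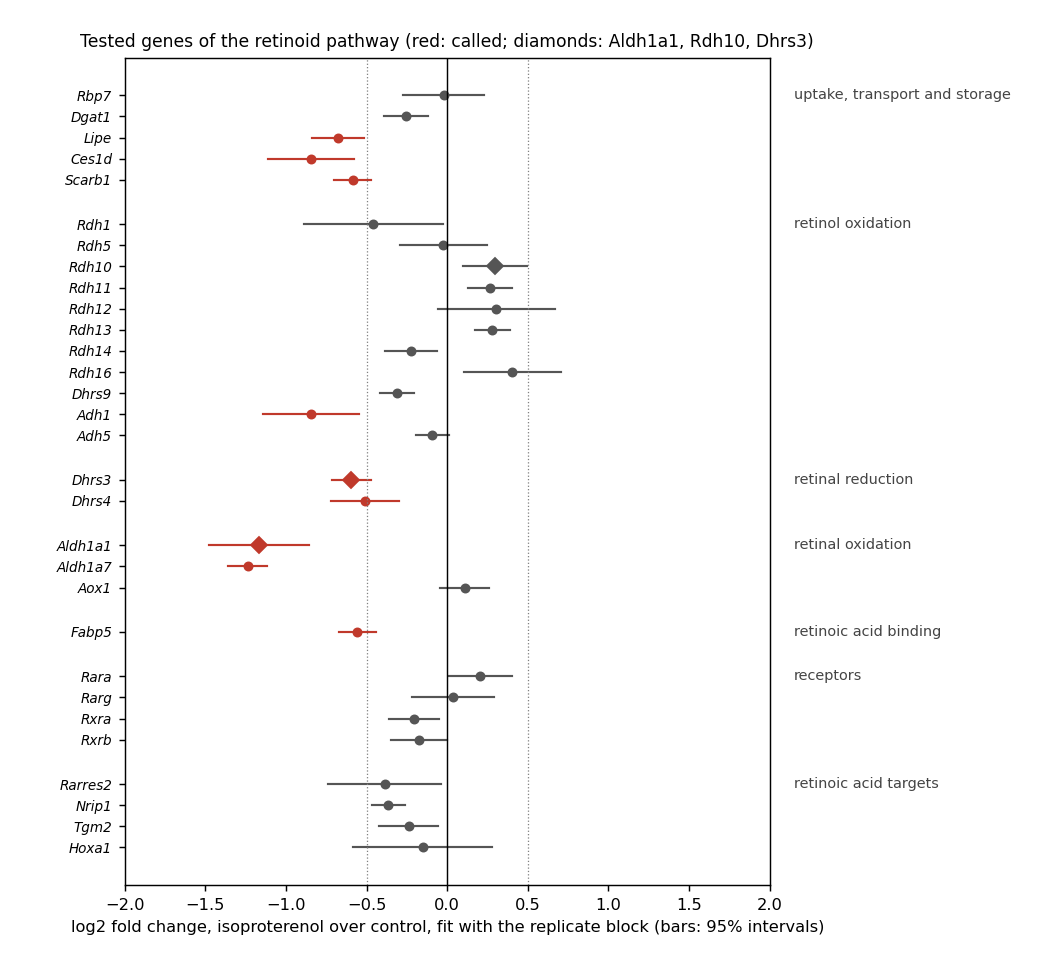
Log2 fold change of isoproterenol over control with 95% intervals from the fit with the replicate block, for the 3 tested genes and the 27 further tested genes of the retinoid pathway, grouped by role, with red for called genes, diamonds for *Dhrs3*, *Aldh1a1* and *Rdh10*, and dotted lines at the bound of 0.5. The called genes, 2 of the 3 and 7 of the 27, all lie left of 0, and *Rdh10* lies right of it within the bound.

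The genes whose log2 CPM followed the 3 tested genes most closely over the 16 libraries were looked up by Pearson correlation, as a description of libraries that share treatment and replicate number. For *Dhrs3* these were *Aqp7* (r = 0.978), *Cat* (0.970) and *Nos3* (0.964). For *Aldh1a1* they were *F2r* (0.967), *Npr3* (0.964) and *Tsc22d3* (0.962), and *Aldh1a7* ranked 83 with 0.897. For *Rdh10* they were *Ptp4a1* (0.834), *Pdk4* and *Tubb2a* (both 0.819).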

How the data were processed

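Polyadenylated RNA of 16 libraries was sequenced in paired ends by the authors, who filtered the reads by cutadapt and counted transcripts by Salmon for GRCm38, against either GENCODE alone or GENCODE with RNAcentral (which of them made this table is not given in the sources used here), per the study's methods and the submitters' processing notes (bcl2fastq, cutadapt, Salmon and DESeq2, versions not given). They deposited estimated counts per gene as whole numbers, not normalized, with no gene removed. Whether strand was used is not given in the sources used here, and Salmon divides reads that match several transcripts, so values of paralogs are uncertain.

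Groups came from the sample titles. In R 4.3.3 with edgeR 4.0.16, genes were kept by filterByExpr (minimum count 10, minimum total 15), libraries were scaled by TMM, and 4 group means were fitted to all 16 libraries with glmQLFit. Contrasts were tested two-sided with glmQLFTest and Benjamini-Hochberg adjustment over 13150 genes. Standard errors were derived from the F statistic. Log2 CPM used a prior count of 2. The replicate number was added as a block in a second fit. Replicate numbers were taken to pair the libraries. In 24 of 24 same-numbered pairs the correlation of deviations from group means was over 0.1 (lowest 0.224, highest 0.613, median 0.41). This cut was not counted for different numbers, whose correlations ran from -0.512 to 0.516 with a median of -0.215. Deviations from means of 4 libraries by themselves pull the correlations of different numbers below 0. The median biological coefficient of variation was 18% without the block and 9.96% with it. Alternatives were DESeq2 1.42.0, its size factors, no filter, the ribosomal RNA gene left out or its share as a covariate, left-out libraries and another transcript length. Named genes were the 9 genes, *Gm15551*, pathway genes that were called in any contrast, at 0 in all libraries or receptors, the 3 genes most like each tested gene, and markers at 0 or moving with a result. *Dhrs9*, *Rdh11*, *Rdh13* and *Nrip1* were added after their values were seen. Members and lists were chosen with earlier results of these data known. Sequences and coordinates came from GENCODE and RefSeq annotations of GRCm38.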

Additional observations from a re-analysis of the deposited data

Results flagged for a closer look

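In each group of 4 libraries, the gap between the highest or lowest library and its nearest neighbour was divided by the range of the group and compared with 0.829, Dixon's 95% critical value. Chance gives about 1 such library in 20 groups. Of 33 groups of the 9 genes in which the libraries were not all equal, 9 held one, and all 9 concerned genes with too few counts for a test. For *Rbp4* these were the replicate 5 libraries of empty vector control (0.13 CPM), sgRNA control (0.748 CPM) and sgRNA isoproterenol (1.04 CPM). For *Stra6* they were the replicate 5 libraries of empty vector control (0.26 CPM) and sgRNA control (0.0748 CPM) and the replicate 4 library of empty vector isoproterenol (0.111 CPM). *Aldh1a2* (0.0801 CPM) and *Crabp2* (0.4 CPM) each stood out in the sgRNA isoproterenol library of replicate 5, and *Aldh1a3* in the sgRNA control library of replicate 5 (0.15 CPM). Each of these values was the highest of its group. Apart from *Rbp4* at 10 and 13 counts and *Crabp2* at 5 counts they rested on 1 or 2 counts, so that a group with 0 counts elsewhere meets the criterion with a single read.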

How the results depend on the processing

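With the replicate block the number of the 9 genes called for isoproterenol moved from 1 to 2 in the average, from 0 to 2 in empty vector cells and from 0 to 2 in sgRNA cells. It was also 2 with the block when the sum of *Aldh1a1* and *Aldh1a7* stood in for *Aldh1a1*. That sum held 1125 counts of *Aldh1a1* and 12831 of *Aldh1a7*, which is not among the 9, so it is no separate call of *Aldh1a1*. The wider list moved from 4 to 7 calls with the block. The block changed no sgRNA or interaction call of these genes. With the share of ribosomal RNA as a covariate 1 of them was called in empty vector cells, and *Rarg* turned to -0.023. Mean transcript length gave 21.2 (*Dhrs3*), 1.97 (*Rdh10*), 4.11 (*Aldh1a1*), 0.0647 (*Aldh1a3*) and 0.042 (*Stra6*) CPM per kb. With the block only whole replicate numbers were left out, which gave 2 calls for averaged isoproterenol and 6 to 9 in the wider list. Without the block, leaving out a library or a replicate number gave 0 to 1 calls and 1 to 5 in the wider list. Over these fits, without the block, *Aldh1a1* ran from -2.72 to 0.39 (isoproterenol in empty vector cells), -2.86 to 0.74 (in sgRNA cells), -0.68 to 1.11 (sgRNA averaged), -1.62 to 1.80 (sgRNA in control cells), -1.46 to 1.85 (sgRNA in isoproterenol cells) and -1.57 to 2.04 (interaction). *Dhrs3* ran from -0.011 to 0.16 (sgRNA averaged), -0.048 to 0.22 (control cells), -0.073 to 0.26 (isoproterenol cells) and -0.15 to 0.21 (interaction), *Rdh10* from -0.058 to 0.13 (sgRNA in control cells) and *Rarg* from -0.11 to 0.17 (isoproterenol). With the block but without replicate 6 *Aldh1a1* turned to -0.16, -0.052 and -0.27 for sgRNA averaged, in control and in isoproterenol cells and to -0.22 for the interaction, and *Rarg* to -0.047. The blocked interaction of *Dhrs3* was -0.014 and -0.019 without replicates 3 and 4. The causes were not tested. The averaged isoproterenol changes of *Dhrs3* (-0.72 to -0.52), *Aldh1a1* (-2.08 to -0.28) and *Rdh10* (0.21 to 0.34) kept their direction in every alternative run. Depth limits the 6 untested genes.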
